A study of Homo sapiens with 15 samples.

Results

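The genes described here were the human long intergenic noncoding RNAs that carry a systematic LINC symbol, the letters LINC and 5 digits. Members were the LINC symbols whose reads summed to 300 or more over all 15 libraries, which held for 86 of 1125 such symbols (7.64%) among 31352 genes in the deposited table. They were thus chosen by their summed reads alone, and by no difference between groups. The remaining 1039 LINC symbols lay under this minimum, 711 of them with fewer than 15 reads. Just outside the minimum were LINC02086 with 299 reads and LINC00460 and LINC02367 with 295 reads each. Just inside were LINC01344 with 300, LINC01119 with 304 and LINC00482 with 306 reads. All 86 members passed the filter on low values, but 21 would have been under the minimum without the empty vector libraries, and LINC01344 reached it from those libraries alone. Without the NICD1, NICD2, NICD3 or NICD4 libraries (defined below), 13, 11, 15 and 8 members would have been under it. A gene that enters through the group where it is high is bound to differ from the others. Counts over the members are thus given as a description. So are the falls against EV of members among the 21, and the differences of any group through which a member entered.

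RNA was measured by RNA-seq of polyadenylated RNA in 5 groups of 3 libraries. In 4 of them cells expressed the intracellular domain of a NOTCH receptor (NICD1, NICD2, NICD3 or NICD4) under doxycycline induction, and the group set against them was an isogenic empty vector control (EV). The cell is HCT116 (from a colorectal carcinoma) according to the labels, while column names and descriptions read U373 (from a glioma). No dose or duration of doxycycline is stated, nor whether EV cells received it, and the labels do not say whether the 3 replicates were separate cultures, so p-values measure the spread between these libraries, which may be technical. That spread was uneven. Chi-square per degree of freedom, near 1 for counting error alone, was 1.29 between NICD2 replicates 1 and 3. It was 17.1 and 21.4 between these and NICD2 replicate 2, 2.50 between NICD3 replicates 2 and 3, and 42.0 between NICD4 replicates 1 and 2. The cause was not tested. For NICD4 replicate 1 the title and description give NICD4 and other label fields give NICD3, and it was kept in NICD4.

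A long intergenic noncoding RNA is a transcript, usually spliced and polyadenylated, that lies between protein-coding genes and holds no long reading frame. Many are made at low levels and in few cell types. Some act on chromatin or on genes beside them, some bind proteins or microRNAs in the cytoplasm, and for most the role is unknown. NOTCH receptors are cut after ligand binding, and the released intracellular domain enters the nucleus, binds the DNA-binding protein RBPJ and switches on target genes, of which HES1 is a direct one.

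Libraries held 11630195 to 27704492 counted reads, of which members took 0.0455% to 0.0494% in the NICD libraries and 0.0589% to 0.0614% in the EV libraries. Levels below are read counts relative to library size (CPM) after scaling by the trimmed mean of M values (TMM), whose scaling factors were higher in EV than in NICD libraries. HES1 averaged 39.6, 105, 49.0 and 55.8 CPM in NICD1 to NICD4 against 19.7 CPM in EV (limma, adjusted p at most 1.1e-07). Reads of the receptor genes marked their own group little: NOTCH1 averaged 28.3 CPM in NICD1 and 30.8 CPM in EV, NOTCH2 41.8 CPM in NICD2 and 31.8 CPM in EV (adjusted p = 0.00019, limma), NOTCH3 11.8 CPM in NICD3 and 10.6 CPM in EV, and NOTCH4 1.94 CPM in NICD4 and 1.69 CPM in EV. The call in NOTCH2 was the single one in a group's own receptor. The sources used here do not say whether reads from the vectors were counted, so groups are named as labelled. Of 12 colorectal epithelial markers, 8 or 9 averaged over 1 CPM in every group, and their summed level ran from 9759 to 23316 CPM in NICD libraries against 2178 to 2741 CPM in EV libraries, with CDX1, LGR5 and CEACAM5 near 0. Most of this sum was KRT8, KRT18 and KRT19, which with CDH1, CDX2, ELF3 and CLDN7 averaged higher in every NICD group than in EV. EPCAM averaged 147 CPM in NICD4 and 155 CPM in EV, and VIL1 0.419, 0.754 and 0.229 CPM in NICD1 to NICD3 and 0.948 CPM in EV. The 12 glioma and astrocyte markers summed to between 49.6 and 89.7 CPM in NICD libraries and between 78.6 and 81.7 CPM in EV libraries, with AQP4, SOX2 and OLIG2 near 0. Single markers moved both ways within this sum. VIM averaged 0.624 to 2.21 CPM in the NICD groups and 22.1 CPM in EV, and BCAN 5.02 to 9.32 CPM and 2.92 CPM. ALDH1L1 averaged 30.2 CPM in NICD3 and 1.53 CPM in EV. The part of these marker differences in the results below was not tested. In bulk RNA, fewer cells of a type and less RNA per cell cannot be told apart.

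The stretch around the start site is shown for 3 of the members that rose most and 3 of those that fell most in all 4 NICD groups, since members that moved together may be compared there. Each run covers 250 bases before and 50 bases after the start, 5′ to 3′ on the gene's strand, from RefSeq on GRCh38.p14, whose start can differ from that of the counted gene. Capitals mark matches on either strand to TGGGAA (the RBPJ core), TGACTCA (the AP-1 site) or TATAAA (the TATA box).
LINC01426 (chr21:34745575-34745874, + strand): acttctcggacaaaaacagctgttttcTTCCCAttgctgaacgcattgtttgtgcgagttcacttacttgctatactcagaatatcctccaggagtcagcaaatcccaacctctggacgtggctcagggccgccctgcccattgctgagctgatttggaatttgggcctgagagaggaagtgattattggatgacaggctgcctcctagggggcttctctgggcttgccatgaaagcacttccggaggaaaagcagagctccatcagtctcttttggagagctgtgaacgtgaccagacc
LINC02298 (chr14:105093897-105094196, + strand): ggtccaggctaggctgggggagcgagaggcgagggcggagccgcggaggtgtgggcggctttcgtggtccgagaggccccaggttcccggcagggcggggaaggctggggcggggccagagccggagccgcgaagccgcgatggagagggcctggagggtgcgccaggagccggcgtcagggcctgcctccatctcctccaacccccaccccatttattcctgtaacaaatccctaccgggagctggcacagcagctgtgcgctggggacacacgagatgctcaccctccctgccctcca
LINC02356 (chr12:111369011-111369310, + strand): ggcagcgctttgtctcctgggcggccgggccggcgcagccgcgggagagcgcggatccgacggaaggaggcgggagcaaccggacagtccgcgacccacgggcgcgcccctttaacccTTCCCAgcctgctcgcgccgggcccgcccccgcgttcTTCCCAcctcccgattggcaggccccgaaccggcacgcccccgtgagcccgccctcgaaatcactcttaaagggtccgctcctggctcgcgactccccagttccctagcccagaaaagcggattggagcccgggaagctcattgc
LINC01344 (chr1:182314012-182314311, - strand): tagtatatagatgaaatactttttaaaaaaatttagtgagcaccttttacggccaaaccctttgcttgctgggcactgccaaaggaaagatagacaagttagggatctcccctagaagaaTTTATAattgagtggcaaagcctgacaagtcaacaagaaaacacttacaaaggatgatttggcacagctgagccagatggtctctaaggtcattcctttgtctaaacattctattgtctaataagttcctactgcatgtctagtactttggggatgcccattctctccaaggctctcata
LINC02473 (chr4:24659650-24659949, + strand): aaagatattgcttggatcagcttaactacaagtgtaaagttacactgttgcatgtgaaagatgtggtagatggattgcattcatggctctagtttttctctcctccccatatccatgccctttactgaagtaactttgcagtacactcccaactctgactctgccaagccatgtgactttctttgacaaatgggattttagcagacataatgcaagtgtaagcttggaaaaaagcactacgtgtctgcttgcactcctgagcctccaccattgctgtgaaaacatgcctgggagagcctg
LINC02882 (chr12:74292582-74292881, - strand): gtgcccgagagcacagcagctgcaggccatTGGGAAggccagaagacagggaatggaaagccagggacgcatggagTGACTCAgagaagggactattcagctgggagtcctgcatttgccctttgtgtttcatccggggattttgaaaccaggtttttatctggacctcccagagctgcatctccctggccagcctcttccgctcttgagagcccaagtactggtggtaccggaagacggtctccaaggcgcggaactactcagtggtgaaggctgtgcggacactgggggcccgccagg
The LINC01426 run held TGGGAA 223 bases before the start, the LINC02356 run held it at 132 and at 95 bases before the start, and the LINC02298 run held none of the 3 motifs. Among the members that fell, the LINC01344 run held TATAAA 130 bases before the start, the LINC02882 run held TGGGAA at 220 and TGACTCA at 174 bases before it, and the LINC02473 run held none. None of these matches overlapped another. RefSeq gave 74 such promoters for 59 members. TGGGAA was present in 22 of them (29.7%) and in 24.0% of all 35116 promoters of the same length, TGACTCA in 9 (12.2%) and in 4.95%, and TATAAA in 13 (17.6%) and in 11.5%. The 15 promoters of members that rose in all 4 groups held a median of 25 CG dinucleotides (6 to 36), the 13 promoters of members that fell in all 4 held a median of 6 (1 to 35), and all promoters held a median of 14. TGGGAA was present in 3 of each of these 2 sets. A match describes letters only and is no evidence of binding.

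Members were expressed at low levels, with a median of 2.77 CPM over all libraries, a range of 0.752 to 41.8 CPM, 14 members over 10 CPM and 31 under 2 CPM. Per kilobase of exon, the median member stood at 1.22 CPM and the median of 12891 tested protein-coding genes at 3.35 CPM. GENCODE release 29 typed 64 members as lincRNA, 8 as processed transcript and 6 as antisense, and 2 (LINC03040 and LINC02693) as protein-coding. The nearest protein-coding gene lay within 10 kb for 31 members and within 100 kb for 70. The counts of 6 members are uncertain because each overlaps a protein-coding gene and the protocol names no strandedness: LINC00174, LINC00852, LINC02166, LINC02210, LINC02482 and LINC02878. The same holds for members that overlap counted noncoding genes on the opposite strand. These include LINC02709 with SBF2-AS1 (997 reads), LINC03040 with SCIRT (1239 reads) and LINC00513 with LINC-PINT (1848 reads). The highest level per kilobase was that of LINC01976, with 30.9 CPM per kb, ahead of LINC02985 with 10.6 and LINC01234 with 8.76 CPM per kb. Summed over the 86 members, the scaled level was 504, 546 and 513 CPM with NICD1, 461, 425 and 454 with NICD2, 510.0, 489 and 478 with NICD3 and 589, 502 and 502 with NICD4, against 492, 474 and 476 in EV. The NICD1 and NICD4 sums lay above all EV sums, the NICD2 sums lay below them, and the NICD3 sums overlapped them, whereas the unscaled share of reads was lower in every NICD library than in every EV library.

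The first question was which LINC genes changed with each intracellular domain. Against EV, 40 members rose and 23 fell in NICD1, where 34.6% of all 15122 tested genes rose and 40.7% fell (75.3% called either way; limma, adjusted p under 0.05). In NICD2, 26 rose and 23 fell, against 28.6% and 31.1% of all genes (59.6% either way). In NICD3, 35 rose and 22 fell, against 32.5% and 36.8% of all genes (69.2% either way). In NICD4, 41 rose and 32 fell, against 35.7% and 45.2% of all genes (80.9% either way). As shares of the 86 members these were 46.5% up and 26.7% down in NICD1, 30.2% and 26.7% in NICD2, 40.7% and 25.6% in NICD3, and 47.7% and 37.2% in NICD4. The shares called either way, 73.3%, 57.0%, 66.3% and 84.9%, were near those of all genes. Among the 12802 tested genes that also had 300 reads or more, the shares called either way were 77.8%, 61.3%, 71.7% and 83.9%. The median member changed by 0.32, 0.07, 0.18 and 0.35 log2 units in NICD1 to NICD4, and the median tested gene by -0.11, -0.05, -0.08 and -0.18. Scaled by library totals alone, which moves the median of all genes to -0.53, -0.31, -0.48 and -0.66, the members split into 27 up and 32 down in NICD1, 19 and 29 in NICD2, 23 and 34 in NICD3, and 24 and 37 in NICD4. As shares of members these were 31.4% up and 37.2% down in NICD1, 22.1% and 33.7% in NICD2, 26.7% and 39.5% in NICD3, and 27.9% and 43.02% in NICD4, where all genes gave 21.9% and 56.1%, 18.8% and 44.0%, 19.9% and 54.6%, and 24.1% and 58.6% with that scaling. Rises outnumbered falls with trimmed means and with median-of-ratios size factors, and falls outnumbered rises with library totals. All 4 comparisons share the EV libraries.

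**Figure D1:**
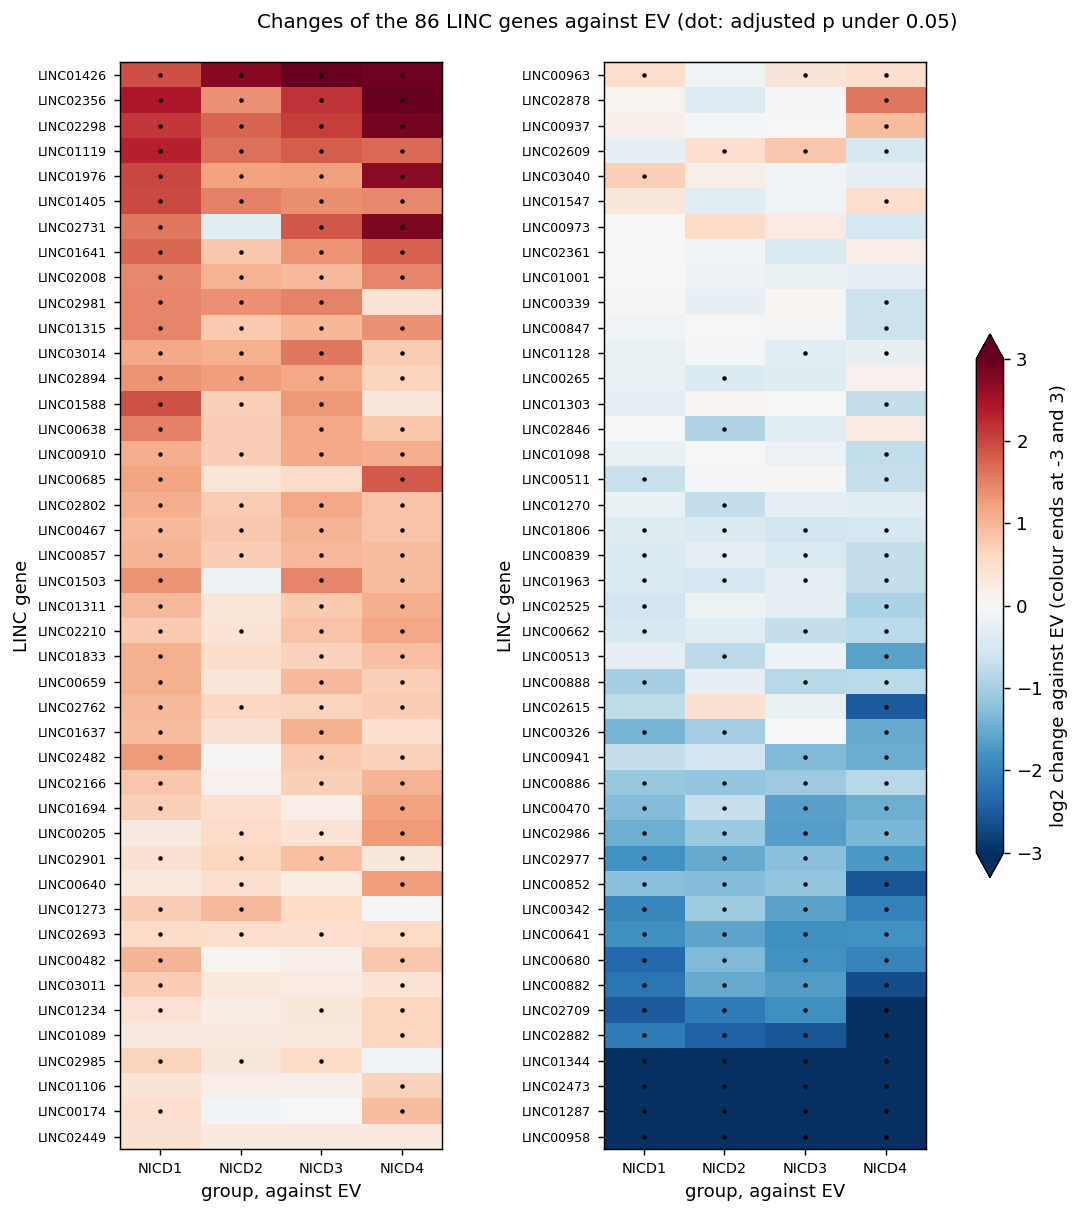
Log2 change against EV of each of the 86 LINC genes (rows, ordered by mean change) in NICD1 to NICD4 (columns), with a dot where the adjusted p was under 0.05. The 19 genes that rose in all 4 groups lie in the left panel, and the 18 that fell in all 4 lie in the right panel, most of them towards its foot.

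Across the 4 groups, 19 members rose in all 4 (22.1% of members, and 22.1% of all genes) and 18 fell in all 4 (20.9% of members, and 24.4% of all genes). Of the 21 members that were under the minimum without EV, 10 were among those that fell in all 4 and 2 among those that rose in all 4. LINC02609 was the single member called in both directions, and LINC00973, LINC01001, LINC02361 and LINC02449 were called in none. With a smooth (lowess) trend on transcript GC content removed from each library's values, LINC00973 was called up in NICD1, NICD2 and NICD3 (0.74, 0.98 and 0.88 log2 units) and LINC02361 down in NICD1, NICD3 and NICD4 (-0.64, -0.97 and -0.69). With library totals alone, LINC00973 was called down in NICD4 (-0.99) and LINC02361 down in NICD3 (-0.83). The 3 libraries of the group and the 3 EV libraries did not overlap for 65, 56, 61 and 72 members with NICD1 to NICD4, which was so for 80.4%, 69.2%, 79.2% and 81.6% of all genes.

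LINC01426, a transcript at chr21:36118054-36157183 (GRCh37) that lies 2.92 kb from RUNX1, a transcription factor gene on the opposite strand, rose in every NICD group. It stood at 0.615, 1.22 and 1.59 CPM with NICD1, 2.00, 1.95 and 1.73 with NICD2, 2.82, 2.97 and 3.36 with NICD3 and 1.34, 2.83 and 2.61 with NICD4, against 0.366, 0.126 and 0.274 in EV. Each NICD library was above each EV library. The changes were 1.94, 2.73, 3.41 and 2.92 log2 units in NICD1 to NICD4 (SE 0.36, n = 3 per group, limma, adjusted p at most 0.00022). LINC01426 was under the read minimum without NICD3, its highest group, so its NICD3 change is a description. Its neighbour RUNX1 rose too, with 37.9, 65.7, 48.8 and 69.0 CPM in NICD1 to NICD4 against 10.8 CPM in EV and changes of 1.81, 2.60, 2.18 and 2.66 log2 units.

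LINC02356, at chr12:111807086-111841114 and 0.161 kb from PHETA1, an endosomal trafficking gene, stood at 2.39, 3.18 and 1.98 CPM with NICD1, 1.53, 0.690 and 1.43 with NICD2, 2.63, 1.78 and 1.87 with NICD3 and 12.1, 4.76 and 6.05 with NICD4, against 0.640, 0.346 and 0.313 in EV. The groups did not overlap EV, and the NICD4 libraries were the highest. The changes were 2.43, 1.37, 2.18 and 3.92 log2 units (SE 0.37, limma, adjusted p at most 0.0055), and NICD4 exceeded NICD2 by 2.56 (SE 0.37, adjusted p = 7.5e-05). PHETA1 had log2 values of 0.85, 0.27, 0.52 and 1.49 in the same order of groups, the NICD2 value not called.

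LINC02298, at chr14:105559946-105565341, stood at 2.12, 3.99 and 2.47 CPM with NICD1, 1.93, 1.66 and 2.97 with NICD2, 3.20, 2.56 and 2.39 with NICD3 and 7.14, 3.08 and 4.75 with NICD4, against 0.457, 0.787 and 0.586 in EV. It changed by 2.11, 1.74, 2.08 and 2.87 log2 units (SE 0.32, limma, adjusted p at most 0.00032), again with no overlap with EV. LINC01119, at chr2:47043836-47086146, stood at 1.57, 1.29 and 2.64 CPM with NICD1, 1.13, 0.974 and 1.09 with NICD2, 1.00, 0.915 and 1.87 with NICD3 and 1.07, 1.09 and 1.12 with NICD4, against 0.366, 0.315 and 0.235 in EV. All NICD libraries lay above EV, by 2.34, 1.65, 1.82 and 1.69 log2 units (SE 0.30, limma, adjusted p at most 0.00028), while its nearest coding gene, the cargo receptor cofactor MCFD2, fell by 1.19, 0.79, 0.93 and 1.35 log2 units. With 304 reads in all, LINC01119 was no longer tested when the filter on low values was raised to 30 reads. It was under the read minimum without the libraries of any single group, so its rises are a description.

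LINC01976, the member with the highest level per kilobase, stood at 15.4, 19.8 and 14.3 CPM with NICD1, 10.9, 6.82 and 11.3 with NICD2, 10.9, 9.38 and 8.55 with NICD3 and 32.1, 22.04 and 27.4 with NICD4, against 5.03, 3.24 and 4.07 in EV. It was highest in NICD4 and lowest in EV, with changes of 2.00, 1.21, 1.23 and 2.71 log2 units (SE 0.21, limma, adjusted p at most 0.00022). The nearest coding gene, PPY, which encodes pancreatic polypeptide, stood at 0.0226, 0.160, 0.0458 and 0.428 CPM in NICD1 to NICD4 against 0.544 CPM in EV, which gave -3.06, -1.53, -2.67 and -0.42 log2 units, the NICD4 value not called. LINC01405, beside the cardiac myosin light chain gene MYL2, stood at 4.17, 6.43 and 3.46 CPM with NICD1, 4.26, 1.91 and 4.25 with NICD2, 4.33, 2.65 and 2.39 with NICD3 and 4.20, 2.44 and 2.98 with NICD4, against 1.56, 0.976 and 0.899 in EV. Its changes were 1.98, 1.51, 1.40 and 1.45 log2 units (SE 0.34, limma, adjusted p at most 0.0023).

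The other members that rose in all 4 groups had a smaller mean change over the 4, the next being LINC01641 with 1.71, 0.80, 1.34 and 1.77 log2 units. Its NICD2 call was lost without NICD2 replicate 1, NICD2 replicate 3, EV replicate 2 or EV replicate 3 (adjusted p up to 0.14, limma). LINC03014 changed by 1.14, 1.08, 1.59 and 0.77, the NICD4 call being lost without NICD4 replicate 2 or EV replicate 1 (adjusted p up to 0.11, limma). LINC00467 averaged 29.8, 26.4, 30.4 and 27.4 CPM in NICD1 to NICD4 against 15.1 CPM in EV, a rise of 0.98, 0.80, 1.01 and 0.86 log2 units. LINC01315 averaged 12.9, 8.01, 9.17 and 11.9 CPM in NICD1 to NICD4 against 4.61 CPM in EV. LINC00857, which lies 2.03 kb from the annexin gene ANXA11, changed by 1.01, 0.73, 0.98 and 0.93 log2 units where ANXA11 changed by 1.15, 1.02, 1.12 and 1.05. LINC02894, 1.61 kb from ESRP1, a splicing regulator of epithelial cells, changed by 1.35, 1.24, 1.16 and 0.67 and ESRP1 by 1.50, 1.45, 1.46 and 1.18 log2 units. The NICD4 call of LINC02894 was lost without NICD4 replicate 2, NICD4 replicate 3 or EV replicate 1 (adjusted p up to 0.14). The rest were LINC00910, LINC02008, LINC02210, LINC02693, LINC02762, LINC02802 and LINC02901. Of these, LINC02762 in NICD2 and NICD3 and LINC02901 in NICD4 lost their calls in some fits without 1 library. With a trend on transcript GC content removed, 18 of the 19 were still called up in all 4, the exception being LINC03014 (0.54 in NICD4), and with library totals alone 11 of the 19 were.

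A set of 4 members was expressed in EV libraries and hardly at all in NICD libraries. LINC00958, a gene that studies of bladder carcinoma have reported as raised, lies at chr11:12984057-13011095 near TEAD1, a partner of the YAP coactivator. Its 3 libraries together held 1, 0, 1 and 1 reads in NICD1 to NICD4 and 1213 reads in EV, where the level was 14.8, 15.7 and 15.3 CPM. The EV level was 729 (95% exact binomial interval 131 to 28822) times that in NICD1, 989 (95% exact binomial interval 177 to 39107) times that in NICD3 and 574 (95% exact binomial interval 103 to 22706) times that in NICD4. LINC00958 was at least 306-fold lower in NICD2, where a floor of 3 reads for the whole group stood in for its 0 reads. Such intervals and floors cover counting error only.

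LINC01344, at chr1:182098445-182283196, had no read in any of the 12 NICD libraries and 3.61, 4.06 and 3.60 CPM in EV. Against EV it was thus at least 60.1-fold lower with NICD1, 75.6-fold lower with NICD2, 81.6-fold lower with NICD3 and 47.4-fold lower with NICD4. Its nearest coding gene, the zinc finger gene ZNF648, averaged 0, 0.0687, 0.0955 and 0.0428 CPM in NICD1 to NICD4 against 1.97 CPM in EV. LINC02473, at chr4:24661479-24673191, had 3, 1, 1 and 1 reads in NICD1 to NICD4 and 515 in EV. The EV level of LINC02473 was 103 (95% exact binomial interval 35.1 to 502) times that in NICD1 and 244 (95% exact binomial interval 43.6 to 9651) times that in NICD4.

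LINC01287, at chr7:153097005-153111048, stood at 0, 0.203 and 0.110 CPM with NICD1, 0.333, 0.243 and 0.0988 with NICD2, 0.251, 0.183 and 0.224 with NICD3 and 0.268, 0.257 and 0.279 with NICD4, against 25.3, 27.9 and 27.2 in EV. Its changes were -7.67, -6.69, -6.62 and -6.38 log2 units (SE 0.46), and NICD4 exceeded NICD1 by 1.29 (SE 0.46, adjusted p = 0.047, limma) at levels of a few reads. These 4 genes summed to between 0 and 0.372 CPM in NICD libraries and between 49.5 and 54.6 CPM in EV libraries. Without them the members summed to 521, 446, 492 and 531 CPM on average in NICD1 to NICD4, against 428 CPM in EV. With them the mean sum was 447 CPM in NICD2 and 480 CPM in EV. The 4 were picked for their low reads in NICD libraries, so leaving them out lowers mainly the EV sum, and these sums are a description. All 4 were under the read minimum without EV, so their difference from EV follows from how members were chosen and is a description.

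**Figure D2:**
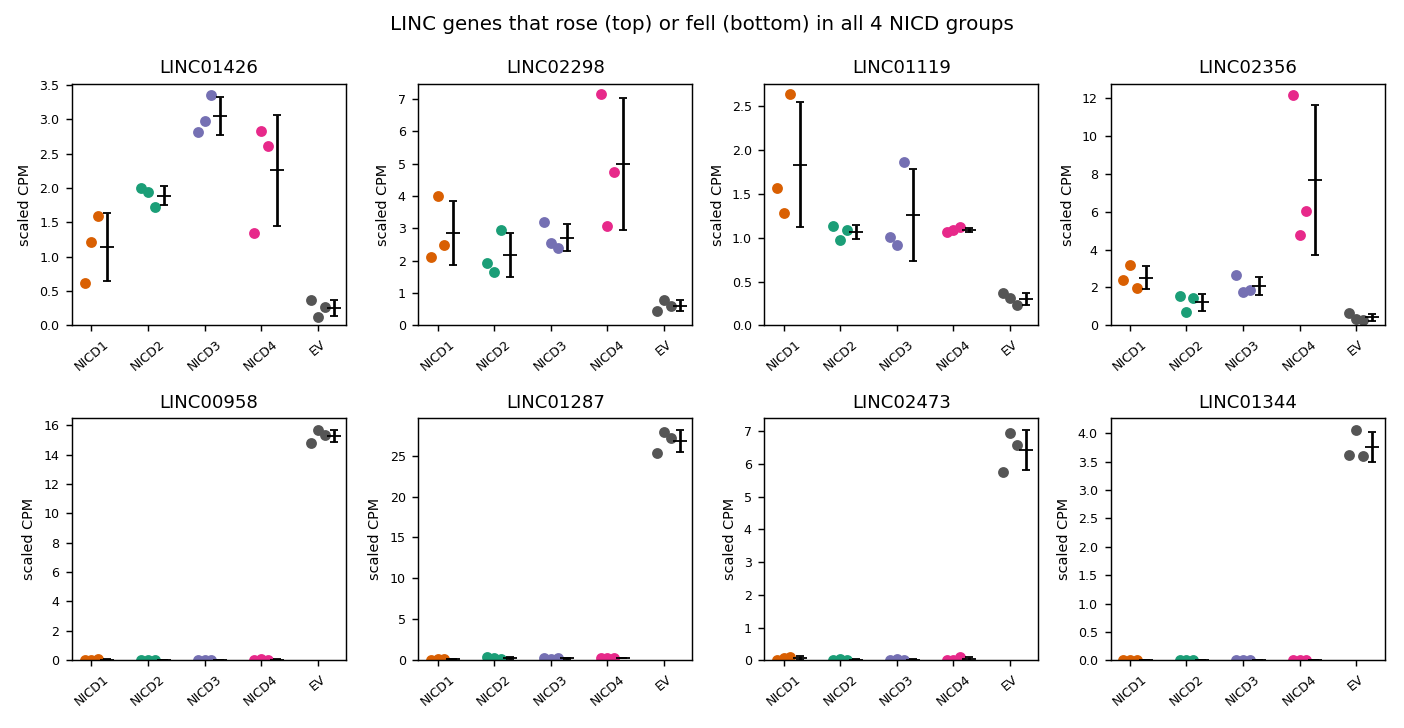
Scaled CPM of 4 LINC genes that rose (top) and 4 that fell (bottom) in all 4 NICD groups, with 1 point per library and a bar for the mean ± SD of 3 libraries. In the top row every NICD library lies above every EV library, and in the bottom row the NICD libraries lie at or near 0 CPM.

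Falls of smaller size came in genes that stayed expressed. LINC02882, at chr12:74526946-74796315, stood at 1.09, 0.880 and 0.715 CPM with NICD1, 0.732, 0.649 and 0.741 with NICD2, 0.502, 0.595 and 0.859 with NICD3 and 0.268, 0.450 and 0.0931 with NICD4, against 4.67, 3.50 and 4.03 in EV. No NICD library reached the EV range, and the changes were -2.12, -2.43, -2.57 and -3.83 log2 units (SE 0.36). LINC02709, 1.78 kb from SWAP70, an actin-binding signalling protein gene, stood at 0.752, 0.813 and 0.769 CPM with NICD1, 1.13, 0.933 and 1.04 with NICD2, 1.25, 1.19 and 1.38 with NICD3 and 0.804, 0.514 and 0.372 with NICD4, against 4.25, 5.10 and 4.69 in EV. It changed by -2.51, -2.12, -1.83 and -2.99 log2 units (SE 0.23), and SWAP70 by -1.51, -1.31, -1.14 and -1.87. Both genes of this pair were lower in every NICD group, but LINC02709 overlaps SBF2-AS1 on the opposite strand, so its count is uncertain. LINC02882 and LINC02709 were also under the read minimum without EV, so these differences are a description.

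LINC00641, 2.24 kb from HNRNPC, an RNA-binding protein gene, stood at 3.01, 2.23 and 3.41 CPM with NICD1, 3.66, 4.14 and 2.57 with NICD2, 2.38, 3.11 and 3.14 with NICD3 and 3.30, 3.66 and 1.96 with NICD4, against 9.38, 11.8 and 9.89 in EV. The 12 NICD libraries were all below EV, with changes of -1.84, -1.59, -1.83 and -1.82 log2 units (SE 0.24, limma, adjusted p at most 6.8e-05). HNRNPC itself had log2 values of -0.24, 0.02, -0.04 and -0.57, called in NICD1 and NICD4. LINC00882 averaged 0.478, 0.809, 0.698 and 0.367 CPM in NICD1 to NICD4 against 2.37 CPM in EV, LINC00680 averaged 0.848, 1.77, 1.17 and 1.06 CPM in NICD1 to NICD4 against 4.27 CPM in EV and LINC00342 averaged 1.49, 2.88, 1.97 and 1.48 CPM in NICD1 to NICD4 against 5.92 CPM in EV. LINC00882 and LINC00680 were likewise under the read minimum without EV. The NICD2 call of LINC00680 was lost without NICD2 replicate 3 or EV replicate 2 (adjusted p up to 0.070). LINC02977, 3.06 kb from SUSD1, changed by -1.81, -1.50, -1.25 and -1.72 log2 units and SUSD1 by -1.52, -0.96, -0.92 and -1.75. The rest of the members that fell in all 4 were LINC00470, LINC00839, LINC00852, LINC00886, LINC01806, LINC01963 and LINC02986. Calls were lost in some fits without 1 library for LINC00470 and LINC00839 in NICD2, LINC01806 in NICD1 and NICD2, and LINC01963 in NICD3. With the GC trend removed, 13 of the 18 were still called down in all 4, and LINC00470, LINC00886, LINC01806, LINC01963 and LINC02986 were not.

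The second question was whether the 4 intracellular domains differed. The F-test over the NICD groups called 51 of 86 members, and 68.1% of all genes. Between pairs, 23 members were called for NICD2 against NICD1 (36.9% of all genes), 5 for NICD3 against NICD1 (6.64%), 20 for NICD4 against NICD1 (28.4%), 9 for NICD3 against NICD2 (15.0%), 49 for NICD4 against NICD2 (63.9%) and 40 for NICD4 against NICD3 (49.5%). As shares of members these were 26.7%, 5.81%, 23.3%, 10.5%, 57.0% and 46.5%, which lay below those of all genes. This order turned in some alternatives: for NICD4 against NICD1, fits of only the groups compared called 9.30% of members and 6.56% of all genes, and for NICD3 against NICD1 the shares were 10.5% and 7.43% with voom weights and 11.6% and 9.80% with the GC trend removed. With no filter beyond 1 read, which tests 31352 genes, the members' share was above that of all genes in all 6 pairs. That setting cannot decide the order, since it adds genes with few reads, while members have 300 reads or more by choice. Among the 12802 tested genes with 300 reads or more, the shares called lay above those of members in all 6 pairs. They ran from 6.97% for NICD3 against NICD1 to 69.8% for NICD4 against NICD2. Of the 23 called for NICD2 against NICD1, 18 were lower in NICD2 (20.9% of members, and 18.3% of all genes) and 5 were higher (5.81% of members, and 18.6% of all genes). Called either way for this pair were 7 members without NICD2 replicate 2, 10 without NICD1 replicate 2 and 14 without NICD1 replicate 1, of which 6, 7 and 11 were lower in NICD2. The calls over all 15122 genes dropped too, from 5582 with all libraries to 2489, 2621 and 4248 in these fits. The count for NICD3 against NICD1 was 3 without any one of NICD1 replicates 1 and 2 or NICD3 replicates 1 to 3, and 9 without NICD4 replicate 1. Over all genes these fits called 466 to 750 and 1627, against 1004 with all libraries. The count for NICD3 against NICD2 was 4 without NICD2 replicate 2 or NICD3 replicate 1 (1125 and 1211 of all genes, against 2273 with all libraries). That for NICD4 against NICD1 was 13 without NICD1 replicate 3 (2102 of all genes, against 4289 with all libraries).

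LINC02731, at chr11:133902167-133916744, stood at 1.09, 2.17 and 1.87 CPM with NICD1, 0.266, 0.446 and 0.544 with NICD2, 1.82, 1.97 and 2.31 with NICD3 and 3.66, 3.28 and 5.03 with NICD4, against 0.778, 0.409 and 0.430 in EV. Libraries of NICD1, NICD3 and NICD4 lay above EV, and those of NICD2 overlapped it. Its changes against EV were 1.57, -0.32, 1.86 and 2.80 log2 units (SE 0.31), of which the NICD2 value was not called and had a 95% interval of -0.99 to 0.35. NICD4 exceeded NICD2 by 3.12 (SE 0.31, adjusted p = 4.5e-06) in limma, and NICD2 differed from NICD1 by -1.89 (SE 0.31, adjusted p = 0.00062). LINC02731 was under the read minimum without NICD4, its highest group, and also without NICD3, so the differences of these groups are a description. LINC01503 was likewise near EV in NICD2, but its NICD4 level was not the highest, at 7.38, 8.60 and 6.65 CPM with NICD1, 2.60, 2.31 and 2.97 with NICD2, 8.15, 9.70 and 6.79 with NICD3 and 7.41, 4.24 and 5.68 with NICD4, against 3.29, 2.33 and 3.17 in EV. Its libraries in NICD2 overlapped EV, and NICD2 differed from NICD1 by -1.50 (SE 0.21, adjusted p = 0.00013) in limma.

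LINC02878, which overlaps the zinc finger gene ZNF707 so that its reads cannot be told from those of that gene, stood at 1.50, 1.69 and 2.09 CPM with NICD1, 1.20, 1.18 and 1.38 with NICD2, 1.76, 1.65 and 1.34 with NICD3 and 6.97, 3.41 and 5.31 with NICD4, against 1.69, 1.29 and 2.03 in EV. The 3 NICD4 libraries were the highest of all 15, and the other NICD groups overlapped EV. NICD4 exceeded EV by 1.58 (SE 0.25, adjusted p = 3.1e-05) and NICD3 by 1.64 (SE 0.25, adjusted p = 0.00023) in limma. ZNF707 changed by -0.51, -0.43, -0.37 and -0.32 log2 units in NICD1 to NICD4.

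LINC00326, at chr6:133409219-133427717, was called lower in NICD1, NICD2 and NICD4 and was not called in NICD3. It stood at 1.84, 2.23 and 2.03 CPM with NICD1, 3.19, 2.11 and 2.67 with NICD2, 5.83, 6.13 and 4.52 with NICD3 and 2.05, 1.80 and 1.77 with NICD4, against 5.95, 5.32 and 5.04 in EV. NICD3 differed from EV by 0.01 (SE 0.17, adjusted p = 0.98), with a 95% interval of -0.36 to 0.37. This NICD3 value depended on scaling and GC: with library totals it was -0.39 (adjusted p = 0.038), called lower, and with the GC trend removed 0.57 (adjusted p = 0.032), called higher. NICD4 differed from NICD3 by -1.52 (SE 0.17, adjusted p = 2.9e-05) in limma. LINC02615, 3.92 kb from PGRMC2, a haem-binding membrane protein gene, stood at 0.752, 0.609 and 0.769 CPM with NICD1, 2.06, 1.62 and 1.53 with NICD2, 1.07, 1.10 and 1.05 with NICD3 and 0.268, 0.643 and 0 with NICD4, against 1.10, 1.39 and 1.25 in EV. The NICD4 libraries lay below all NICD2, NICD3 and EV libraries and overlapped NICD1, and the difference was -2.95 (SE 0.60, adjusted p = 0.00079) for NICD4 against NICD2 in limma. LINC02615 was under the read minimum without NICD2 or without EV, the groups where it was highest, so these differences are a description.

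LINC02609, at chr1:91295104-91317207, stood at 1.78, 1.76 and 1.70 CPM with NICD1, 3.39, 2.72 and 2.82 with NICD2, 3.95, 3.11 and 3.99 with NICD3 and 1.79, 1.48 and 1.21 with NICD4, against 2.10, 2.39 and 1.76 in EV. NICD2 and NICD3 libraries lay above all EV libraries, and NICD4 libraries overlapped the EV range at its lower end. The changes were -0.24, 0.51, 0.81 and -0.48 log2 units (SE 0.18), with calls up in NICD2 and NICD3 and down in NICD4. Its NICD4 value became 0.13 with the GC trend removed and was then not called (adjusted p = 0.58), nor was it with median-of-ratios size factors, voom weights, fits of only the groups compared or no filter beyond 1 read (adjusted p 0.055 to 0.066). The NICD2 call was lost with library totals (0.25, adjusted p = 0.22) and with no filter beyond 1 read (adjusted p = 0.060). The NICD2 call was also lost without NICD2 replicate 1 or EV replicate 3 (adjusted p up to 0.088), and the NICD4 call without NICD4 replicate 3, EV replicate 1 or EV replicate 2 (adjusted p up to 0.12). LINC01588 was called up in NICD1, NICD2 and NICD3 with changes of 1.90, 0.71, 1.30 and 0.35 log2 units, and NICD4 differed from NICD1 by -1.55 (SE 0.18, adjusted p = 2.8e-05) in limma.

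**Figure D3:**
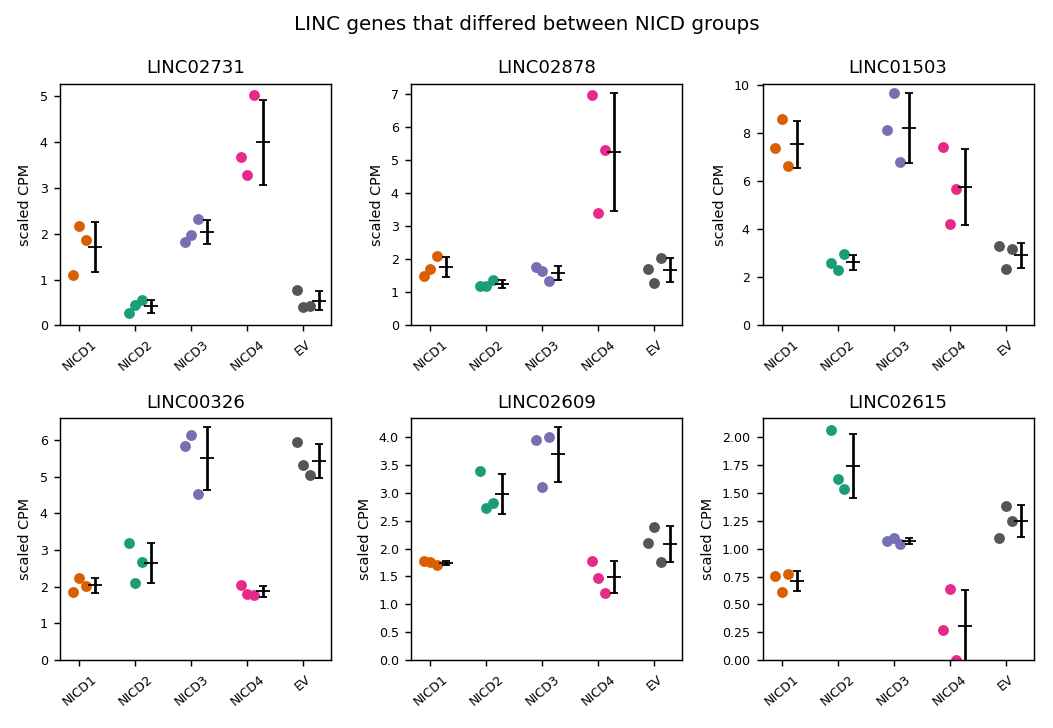
Scaled CPM of 6 LINC genes called between NICD groups, with 1 point per library and a bar for the mean ± SD of 3 libraries. LINC02731 and LINC01503 overlapped EV in NICD2, LINC02878 was highest in NICD4, LINC00326 overlapped EV in NICD3, and LINC02615 had its lowest mean in NICD4 (its SD bar is cut at 0).

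Other abundant or steady members moved by less than 1 log2 unit. LINC01128 averaged 17.1, 19.2, 15.7 and 16.7 CPM in NICD1 to NICD4 against 19.8 CPM in EV, with changes of -0.21, -0.05, -0.34 and -0.24 log2 units, called in NICD3 and NICD4, the NICD4 call being lost without NICD4 replicate 2, EV replicate 2 or EV replicate 3 (adjusted p up to 0.11) or with the GC trend removed (-0.09). LINC00963, with the highest mean level of all members, averaged 49.6, 31.6, 45.0 and 48.2 CPM in NICD1 to NICD4 against 34.3 CPM in EV and changed by 0.53, -0.12, 0.39 and 0.47 log2 units, of which the NICD2 value was not called, the NICD3 call was lost without NICD3 replicate 1 (adjusted p = 0.10), and the NICD3 and NICD4 values turned to -0.02 and -0.01 with library totals. LINC01234 averaged 41.8, 35.8, 39.2 and 48.6 CPM in NICD1 to NICD4 against 30.8 CPM in EV and changed by 0.43, 0.22, 0.34 and 0.65 log2 units, with the NICD2 value not called and the NICD3 call lost without NICD3 replicate 1 (adjusted p = 0.065) and turned to -0.06 with library totals. LINC01001 averaged 1.35, 1.13, 1.11 and 1.08 CPM in NICD1 to NICD4 against 1.28 CPM in EV, and its 95% intervals against EV were -0.76 to 0.75 in NICD1 and -1.01 to 0.50 in NICD4. LINC02449 was likewise not called, at 0.46, 0.29, 0.27 and 0.28 log2 units. LINC02985, 1.26 kb from BCL7A, a chromatin remodelling subunit gene, averaged 24.8, 19.8, 22.8 and 14.4 CPM in NICD1 to NICD4 against 15.6 CPM in EV and was called up in NICD1, NICD2 and NICD3.

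Members were then set beside their nearest protein-coding gene, which was tested for 74 of them. Both genes of a pair were called in 45, 23, 39 and 52 pairs with NICD1 to NICD4. They moved in the same direction in 34, 17, 30 and 41 of these pairs (75.6%, 73.9%, 76.9% and 78.8%). Over 12471 tested genes set beside their nearest other protein-coding gene in the same way, the shares were 66.7%, 66.3%, 67.4% and 67.6%, and over the 1814 of them not typed protein-coding 57.6%, 65.2%, 61.0% and 57.8%. Across the 74 pairs, Pearson's r between the log2 changes was 0.46, 0.45, 0.45 and 0.47, and Spearman's rho 0.39, 0.31, 0.38 and 0.45, where the 12471 genes gave r of 0.33, 0.29, 0.32 and 0.33 and rho of 0.28, 0.22, 0.27 and 0.31. With the GC trend removed, r over the 74 pairs was 0.34, 0.39, 0.35 and 0.29 and rho 0.19, 0.23, 0.24 and 0.16. No test of these differences was made. The pairs share their libraries, the EV control and regional base composition, and are not independent. Among the 28 pairs within 10 kb r was 0.33, 0.47, 0.44 and 0.46, and among the 46 farther apart 0.52, 0.46, 0.47 and 0.46. LINC01637, 0.429 kb from AIFM3, had log2 values of 0.92, 0.46, 1.07 and 0.49, called in NICD1 and NICD3, and AIFM3 rose by 2.67, 2.00, 2.25 and 2.95 log2 units. LINC01833, 2.56 kb from the homeobox gene SIX3, had log2 values of 1.06, 0.55, 0.68 and 0.91, called in NICD1, NICD3 and NICD4, and SIX3 of -0.65, -1.26, -0.39 and -0.61, called in NICD2.

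**Figure D4:**
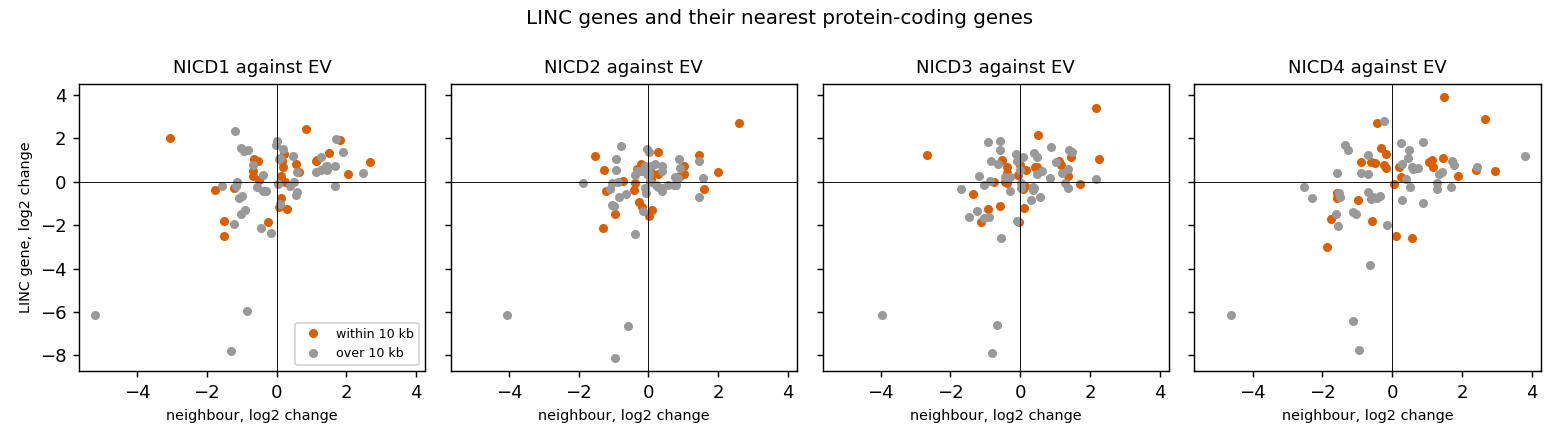
Log2 change of each LINC gene (vertical axis) against that of its nearest protein-coding gene (horizontal axis) in the 4 comparisons with EV, for 74 pairs, coloured by distance. Points in the upper right and lower left moved in the same direction, and the LINC genes near -6 to -8 are those hardly expressed in NICD libraries.

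Changes varied with base composition. Over all tested genes, the log2 change rose by 0.63, 0.33, 0.50 and 0.82 per 10% of transcript GC in NICD1 to NICD4. Over the 86 members, Pearson's r between change and GC was 0.33, 0.18, 0.26 and 0.35, and Spearman's rho 0.46, 0.22, 0.35 and 0.44, a description over genes that share the same 15 libraries. Median GC was 49.6% in members that rose in all 4 groups and 46.2% in those that fell in all 4, against 50.0% in all members and 49.7% in all tested genes. The part of GC content in single changes was not tested beyond removing the trend.

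**Figure D5:**
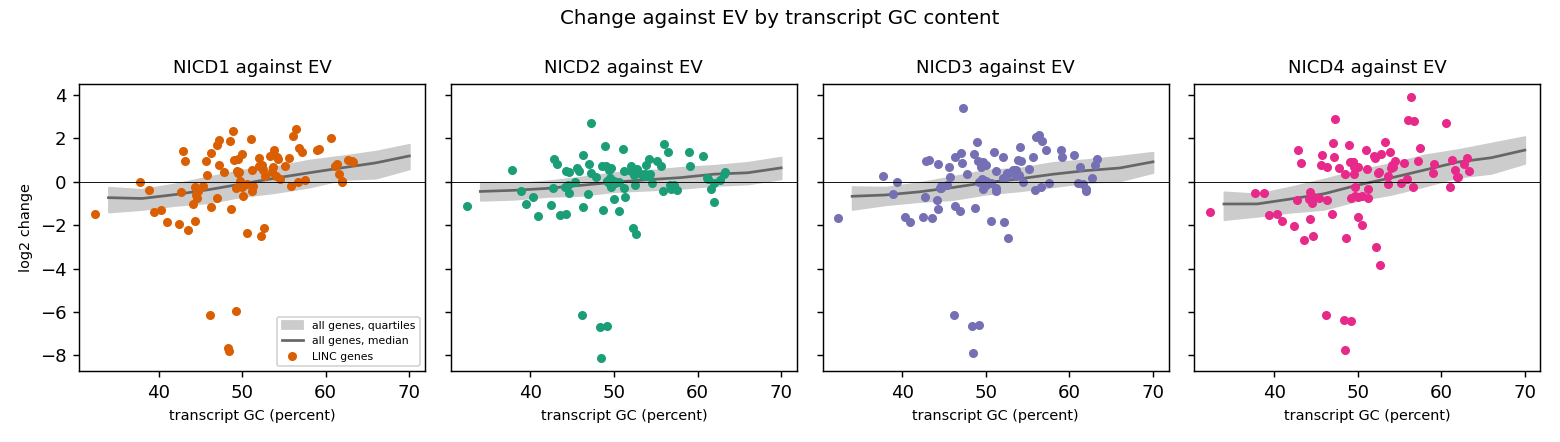
Log2 change against EV by transcript GC content for the 86 LINC genes (points), with the median (line) and quartiles (grey band) of all tested genes in bins of GC. All 4 bands slope upward, and the 4 LINC genes hardly expressed in NICD libraries lie below every band at 46% to 49% GC.

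Long noncoding RNAs with names of their own, 40 genes listed for comparison, were tested in 23 rows, with LINC-PINT present as 2 identifiers. They rose in 3, 4, 4 and 7 of the 23 rows and fell in 11, 12, 10 and 12 in NICD1 to NICD4. Their median changes were -0.17, -0.32, -0.16 and -0.44 log2 units. Of all tested genes, 34.6%, 28.6%, 32.5% and 35.7% rose and 40.7%, 31.1%, 36.8% and 45.2% fell. Whether the listed genes differ from all genes was not tested. MALAT1, a nuclear speckle RNA, averaged 126, 152, 119 and 105 CPM in NICD1 to NICD4 against 237 CPM in EV, and fell by 0.92, 0.62, 1.02 and 1.16 log2 units. NEAT1, which builds paraspeckles, fell by 1.29, 1.01, 1.46 and 1.47 log2 units. CYTOR, a cytoskeleton-linked RNA, rose, averaging 79.5, 70.1, 86.8 and 138 CPM in NICD1 to NICD4 against 18.0 CPM in EV. BCYRN1, which has many Alu-related copies so that its count is uncertain, averaged 86.9, 70.7, 86.2 and 209 CPM in NICD1 to NICD4 against 20.3 CPM in EV. NORAD, which binds Pumilio proteins, averaged 126, 114, 137 and 123 CPM in NICD1 to NICD4 against 123 CPM in EV and was not called in any group.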

How the data were processed

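The deposited values are log2 of each gene's raw read count plus 1, per the file headers, unscaled for library size. The submitters' processing notes name TopHat2 2.0.6, HTSeq and GRCh37. Undoing the log2 gave whole numbers within 0.001 for 100% of values. Symbols were found for 29524 of 31352 identifiers, 131 of them in GENCODE release 29 only. A gene was tested if 3 libraries reached 0.548 CPM (10 reads at median depth) and all libraries together 15 reads, which left 15122. Counts were scaled by the trimmed mean of M values, and log2 was taken after adding 1 read (0.0544 CPM), which understates changes of low genes. In limma 3.58.1 (R 4.3.3, statmod 1.5.0), all 15 libraries entered a linear model of group means with a trended, robust variance prior. Tests were two-sided, with Benjamini-Hochberg adjustment over all tested genes. The fit was also run on simulated data, in which a small set of genes changed, in NICD1 alone, with the same spread for all genes. The data here differ in these respects, so that run does not test the fit in this setting.

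Positions are those of the file (GRCh37), and promoters those of RefSeq (GRCh38.p14). Members with values in every library were the largest changes against EV, shared by all 4 groups or between NICD groups, the highest levels per kilobase, the steadiest, and those with under 4 reads in a group. The members and lists were chosen with earlier results of these data known.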

Additional observations from a re-analysis of the deposited data

Results flagged for a closer look

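LINC02609 was called up in NICD2 and NICD3 and down in NICD4, and the difference between them was called in a direct test. NICD4 differed from NICD2 by -0.98 log2 units (SE 0.18, limma, adjusted p = 0.00038), with -0.48 in NICD4 and 0.51 in NICD2 against EV. NICD4 differed from NICD3 by -1.28 log2 units (SE 0.18, limma, adjusted p = 0.00016), with -0.48 in NICD4 and 0.81 in NICD3 against EV. All 3 NICD4 libraries lay below all NICD2 and NICD3 libraries. The opposite direction against EV was lost with the GC trend removed, where the NICD4 value was 0.13 (limma, adjusted p = 0.58), and the NICD4 call was lost without NICD4 replicate 3, EV replicate 1 or EV replicate 2.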

How the results depend on the processing

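With library totals alone, 23 members rose and 34 fell in NICD3, 24 rose in NICD4, and 11 rose in all 4 groups, and the cause was not tested. For NICD3 against NICD1, 9 members were called with voom weights (10.5%, and 7.43% of all genes) and 10 with the GC trend removed (11.6%, and 9.80% of all genes). In fits of only the groups compared, which have fewer samples, 8 were called for NICD4 against NICD1 (9.30%, and 6.56% of all genes) and 26 for NICD4 against NICD3 (30.2%, and 37.9% of all genes). Among the 37 members with 1000 reads or more, a smaller set, the counts up and down were 16 and 11 in NICD1, 11 and 8 in NICD2, 14 and 9 in NICD3, and 19 and 15 in NICD4, with 8 up and 6 down in all 4. Between NICD groups this set gave 13 calls for NICD2 against NICD1, 3 for NICD3 against NICD1, 10 for NICD4 against NICD1, 5 for NICD3 against NICD2, 24 for NICD4 against NICD2, 20 for NICD4 against NICD3 and 25 in the F-test. Of all tested genes, 75.3%, 59.6%, 69.2% and 80.9% were called against EV in NICD1 to NICD4. The 6 pairs, in the order above, gave 36.9%, 6.64%, 28.4%, 15.0%, 63.9% and 49.5% of all genes, and the F-test 68.1%. In all 4 groups 22.1% of all genes rose and 24.4% fell. No share was taken over genes with 1000 reads or more, so these counts are a description. Median-of-ratios size factors, other filters and other pseudocounts kept every count within 1.5 times its main value.

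Leaving out 1 library at a time, rises and falls ranged from 36 to 41 and 21 to 24 in NICD1, 23 to 30 and 17 to 24 in NICD2, 32 to 36 and 21 to 23 in NICD3, and 35 to 41 and 30 to 34 in NICD4. Over all 15122 genes they ranged from 4900 to 5391 and 5417 to 6355 in NICD1, and 3753 to 4583 and 3381 to 5027 in NICD2. The ranges over all genes were 4529 to 5108 and 4535 to 5806 in NICD3, and 5245 to 5423 and 6341 to 6874 in NICD4. Between 16 and 20 members rose in all 4 and 14 to 19 fell in all 4, a description, as no share of all genes was taken for these fits. The ranges between NICD groups were 7 to 27 for NICD2 against NICD1, 3 to 9 for NICD3 against NICD1, 13 to 26 for NICD4 against NICD1, 4 to 11 for NICD3 against NICD2, 37 to 50 for NICD4 against NICD2 and 27 to 42 for NICD4 against NICD3, with 42 to 55 in the F-test. In the same order, all genes gave 2489 to 6694, 466 to 1627, 2102 to 5980, 1125 to 3156, 8194 to 9912 and 5487 to 8249, with 8945 to 10620 in the F-test. Over 378 single changes against EV or between NICD groups in each of 15 such fits (5670 values), 154 lost their call, 43 gained one and none reversed.

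Direction turned for some single genes where either value was called. With library totals alone these were LINC00174 (-0.38), LINC00326 (-0.39), LINC00937 (-0.39), LINC00963 (-0.0151), LINC01234 (-0.0614) and LINC01303 (-0.38) in NICD3, LINC00265 (-0.36), LINC00963 (-0.0109), LINC02901 (-0.13) and LINC03011 (-0.0577) in NICD4, and LINC00339 (-0.40) in NICD1. With the GC trend removed they were LINC00662 (0.0194), LINC00973 (0.74), LINC01806 (0.36), LINC02361 (-0.64) and LINC02846 (-0.65) in NICD1, LINC01806 (0.0181) in NICD3, and LINC00482 (-0.15), LINC01547 (-0.33), LINC01806 (0.47), LINC02361 (-0.69), LINC02609 (0.13) and LINC02846 (-0.65) in NICD4. The cause was not tested.

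Replicate numbers are shared between groups, but same-numbered libraries did not all deviate together: r between their deviations ran from 0.14 to 0.36 in the 12 pairs of replicates 1 and 2 within NICD2, NICD3, NICD4 and EV, and from -0.43 to 0.23 in the other 18, which involve NICD1 or replicate 3, and 6 of 15 libraries correlated best with their own number. With the number as a block, rises and falls were 40 and 23 in NICD1, 27 and 23 in NICD2, 35 and 22 in NICD3, and 40 and 32 in NICD4. All 15122 genes gave 5212 and 6158, 4337 and 4741, 4901 and 5549, and 5386 and 6822 with this block. With the block and the GC trend removed, 9 members were called for NICD3 against NICD1 (10.5%, and 9.56% of all genes), and the genes that turned with the GC trend had the same values.

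Depth limits the precision of low members, 31 of which averaged under 2 CPM.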
